A study of Homo sapiens with 2 samples.

Results

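The 9 genes described here encode the core machinery and the classical products of the epithelial-to-mesenchymal transition (EMT): the transcription factors SNAI1, SNAI2, ZEB1, ZEB2, TWIST1 and TWIST2, the adhesion protein CDH2, the filament protein VIM and the matrix protein FN1. They were taken as a named set, and RUNX1 peaks were assigned to a gene when the summit, the highest point of the peak, lay in its interval or within 50 kb on either side. By this rule 11 of the 13591 peaks in the list belonged to 4 of the 9 genes, and the other 5 genes had 0.

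RUNX1 binding was measured by ChIPseq in engineered MCF10A cells, a non-tumorigenic human mammary epithelial line. The line used was a RUNX1 knockout, and knockout lines in the study were grown from single-cell colonies. An inducible RUNX1 vector was integrated into it, and both libraries came from cells given doxycycline, which turns the vector on, at 1 µg/ml for 24 h. There was 1 library precipitated with an anti-RUNX1 antibody, with 80338845 kept tags, and 1 library of input DNA, with 87410774 kept tags. Any RUNX1 in these cells was therefore supplied from a vector. No library without RUNX1 was analysed here, so antibody signal apart from RUNX1 could not be told from RUNX1 binding. None of endogenous RUNX1 was analysed here either. The paper reports that its earlier ChIPseq of endogenous RUNX1 gave no strong binding, and proposes low RUNX1 expression or low antibody affinity as possible reasons. Without replicates no test between samples was possible. A peak list carries no expression, so the epithelial identity of the cells was not checked. The RUNX1 gene itself had the most peaks within 50 kb of any protein-coding gene, 19. The vector also carries RUNX1 sequence, and the part of that and of gene length in this count was not tested.

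In EMT, epithelial cells lose their cell-cell junctions and gain motility. The SNAI and ZEB zinc finger proteins and the TWIST basic helix-loop-helix proteins bind E-box sequences in DNA, and SNAI and ZEB proteins repress epithelial genes such as CDH1. Cells that complete the programme make N-cadherin, vimentin and fibronectin, the products of CDH2, VIM and FN1. RUNX1 binds DNA as a heterodimer with CBFB and recognises a short sequence, TGTGGT or TGCGGT, read on either strand.

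Within 50 kb, RUNX1 peaks were found at a single member of each pair of related factors. SNAI1 had 4 peaks and SNAI2 had 0. ZEB1 had 2 and ZEB2 had 0. TWIST2 had 2 and TWIST1 had 0. The layout depends on the window. With 100 kb on either side TWIST1 had 1 and TWIST2 had 3, and with 5 kb no SNAI or TWIST gene had a peak. Among the mesenchymal products VIM had 3, whereas CDH2 and FN1 had 0. The 6 transcription factors together held 8 peaks and the 3 products held 3. Having a peak was not unusual, because 52.1% of the 20037 protein-coding genes had a summit in the gene or within 50 kb, and 4 of 9 is 44.4%. At that share a peak at a single gene of a pair is also common, and the pair layout was not tested. The density in the 1.65 Mb searched was 6.65 peaks per Mb (exact 95% Poisson interval 3.32 to 11.9), compared with 5.64 in the same windows around all protein-coding genes. The interval holds the value around all protein-coding genes, so no difference in density was detectable with 11 peaks. It treats peaks as independent, although 2 SNAI1 summits lay 165 bp apart, and so it may be too narrow. Intervals here and below cover counting error only.

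**Figure D1:**
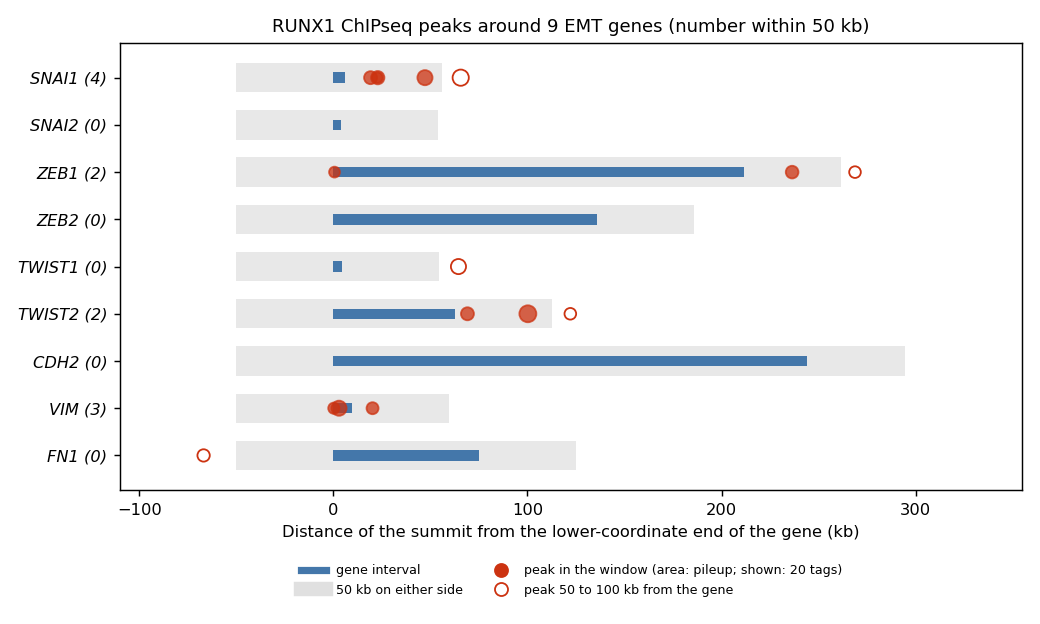
Peaks around each of the 9 genes, with the distance of the summit from the lower-coordinate end of the gene in kb on the horizontal axis and 1 gene per row. Blue bars are gene intervals, grey bars add 50 kb on either side, and circle area follows the pileup, filled for the 11 peaks in the window and open for those 50 to 100 kb away. No filled circle lies to the left of its gene.

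Gene length changes how easily a gene meets the rule. Of the 4 members under 10 kb, SNAI1 and VIM had a peak, compared with 44.3% of all protein-coding genes of that length. Of the 2 between 10 and 100 kb, TWIST2 had a peak and FN1 did not, compared with 51.9%. Of the 3 members of 100 kb or longer, ZEB1 had a peak whereas ZEB2 and CDH2 did not, compared with 66.1%. CDH2, at 244 kb the longest of the 9, had the most sequence to search and no peak.

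No summit in the window lay at lower coordinates than its gene. Of the 11 summits, 3 were inside the gene, 8 were at higher coordinates and 0 were at lower coordinates. The 8 came from only 4 genes, and 4 of them from SNAI1. Past the window, the nearest summit of FN1 lay on the lower side, 66.9 kb away. The share of sides over all genes was not computed, so the layout is a description only. ZEB1, TWIST2 and VIM are read in the direction of increasing coordinates in the RefSeq promoter table, so for these genes the outside peaks lay beyond the end of the gene. In all 11 cases the member was the nearest protein-coding gene to the summit. Across all 21412 pairs of a protein-coding gene and a summit within 50 kb, the gene was the nearest in 50.3%. The members with peaks had few neighbours: RNF114 alone lay within 50 kb of SNAI1 and TRDMT1 alone within 50 kb of VIM, and no other protein-coding gene lay that close to ZEB1 or TWIST2.

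The peak at the start of ZEB1 can be shown with its sequence. ZEB1, a repressor of epithelial genes, occupies chr10:31318417-31529804 (GRCh38), and the RefSeq table gives 7 start windows for it, each running from 250 bases before to 50 bases after a start site. The peak covered chr10:31318946-31319042, and 77 of its 97 bases fall in the window of the start site at 31319216. These 77 bases, chr10:31318966-31319042 on the plus strand, are printed 5′ to 3′ from RefSeq (GRCh38.p14) because they hold the summit, at 31318990. Capitals mark the RUNX motif TGTGGT, which is written ACCACA here since it reads on the opposite strand. For comparison, 30 bases around the same motif in the VIM window (chr10:17228133-17228162, plus strand) are given, where it reads on the plus strand.
ZEB1: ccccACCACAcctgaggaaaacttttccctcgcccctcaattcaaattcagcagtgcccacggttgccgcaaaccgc
VIM: taaaaagttgggTGTGGTttcatgggggga

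In ZEB1 the motif spanned 31318970 to 31318975, inside the peak, 15 bases from its summit and 241 bases before the start site. In VIM it spanned 17228145 to 17228150, 91 bases before the start site at 17228241, but it was 326 bases from the nearest summit. That peak began 155 bases past the end of the VIM window and did not overlap it. TGTGGT on either strand is held by 13.1% of the 35116 windows in the table, TGCGGT by 7.29% and at least 1 of them by 19.6%. In stretches of 77 bases taken from the first base of each window, the share with either motif was 5.29%. Over the members the table has 13 windows, for ZEB1, ZEB2, TWIST2, CDH2, VIM and FN1, and 3 of them held a RUNX motif: 2 of ZEB1 and that of VIM. The windows of ZEB2, TWIST2, CDH2 and FN1 held neither. A match of letters is a description and does not show that RUNX1 was bound at those bases.

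The same stretch of ZEB1 also held CACCTG, an E-box of the kind that ZEB and SNAI proteins bind, a sequence searched after the stretch was seen. It spanned 31318974 to 31318979, shares 2 bases with the RUNX motif and is shown here in capitals. CACCTG on either strand is held by 20.6% of all windows and by 5.98% of stretches of 77 bases.
ZEB1: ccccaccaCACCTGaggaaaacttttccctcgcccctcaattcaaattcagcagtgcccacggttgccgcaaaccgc

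The ZEB1 start peak was low. Its pileup, which counts how many extended ChIP tags cover the summit, was 14 (7.65 to 23.5), its fold enrichment over the local background was 4.68 and its −log10 q was 4.31. A higher −log10 q was reached by 67.4% of all peaks. The summit also lay in ZEB1-AS1, a long non-coding RNA gene that overlaps the start of ZEB1, so the peak cannot be assigned to ZEB1 alone. The other ZEB1 peak was at chr10:31554675-31554819, 24.9 kb past the gene, 145 bp long and with 19 tags (11.4 to 29.7), a fold enrichment of 6.25 and a −log10 q of 8.48. Between them the 211 kb gene held no further summit.

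VIM encodes vimentin, the intermediate filament protein that marks mesenchymal cells and that many cultured epithelial lines also make. It occupies chr10:17228241-17237593 and was the other gene with a peak near its start. The first peak, chr10:17228445-17228603, was 159 bp long with 15 tags (8.40 to 24.7), a fold enrichment of 4.997 and a −log10 q of 5.09. Its summit was 235 bp after the gene start and also inside VIM-AS1, a long non-coding RNA gene that overlaps VIM.

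The second VIM peak, chr10:17231047-17231273, was stronger, with 27 tags (17.8 to 39.3), a fold enrichment of 8.74 and a −log10 q of 16.26. It was 227 bp long, lay 2890 bp into the gene and outside VIM-AS1, and only 8.73% of all peaks had a higher −log10 q. The third, chr10:17248368-17248443, was 10.8 kb past the gene, 76 bp long and had 17 tags (9.90 to 27.2), a fold enrichment of 4.79 and a −log10 q of 5.35. The Poisson intervals of the 3 VIM peaks overlap, so their order by height is not firm.

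Among protein-coding genes 18.7% had a summit inside the gene, and 2 of the 9 members did, ZEB1 and VIM. Of 15843 protein-coding genes in the promoter table, 4.87% had a summit within 1 kb of a start site, and of the 6 members in the table these were again ZEB1 and VIM. A gene counted when any of its start sites had a summit, and ZEB1 has 7 start windows. Both start peaks had low fold enrichments, 4.68 and 4.997, and also lay in the long non-coding RNA genes ZEB1-AS1 and VIM-AS1.

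SNAI1, a zinc finger repressor of CDH1, occupies chr20:49982980-49988886 and had more peaks than the other 8 genes. Its 4 peaks all lay outside it, at higher coordinates. By the same rule 6.67% of protein-coding genes had 4 or more summits within 50 kb. That share is per gene, whereas SNAI1 had the most of 9 genes, so it does not measure how unusual the count is. With peaks within 1 kb merged SNAI1 had 3. The strongest by −log10 q, chr20:50029934-50030239, was 41.3 kb away and was the longest of the 11 peaks, at 306 bp. It had 27 tags (17.8 to 39.3), a fold enrichment of 5.99 and a −log10 q of 11.05, and its summit lay in SCREEM1, a long non-coding RNA gene.

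The peak nearest to SNAI1, chr20:50001970-50002168, was 13.2 kb away and 199 bp long. It had 20 tags (12.2 to 30.9), a fold enrichment of 6.56 and a −log10 q of 9.38. The remaining peaks lay side by side, with summits 165 bp apart, and count as 1 when peaks within 1 kb are merged. The higher of these, chr20:50005776-50005951, was 176 bp long with 21 tags (13.0 to 32.1), a fold enrichment of 4.70 and a −log10 q of 6.38. The lower was 80 bp long with 13 tags (6.92 to 22.2), the fewest of the 11. The input level, the local background recovered from pileup and fold enrichment, was 1.67 times the genome background at the strongest peak and at the higher of the adjacent pair, which was the highest over the 11 peaks. Its part in these values was not tested.

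TWIST2, a basic helix-loop-helix factor of mesodermal and dermal cells, occupies chr2:238848085-238910534. It had the tallest peak of the set, chr2:238948141-238948415, 37.7 kb past the gene and 275 bp long. Its pileup was 34 tags (23.5 to 47.5), its fold enrichment 9.76 and its −log10 q 21.80, a value exceeded by 4.25% of all peaks. The other TWIST2 peak, chr2:238917054-238917257, was 6.61 kb past the gene and 204 bp long, with 20 tags (12.2 to 30.9), a fold enrichment of 6.56 and a −log10 q of 9.38. Both lay in no annotated gene. The start site of TWIST2 was 69061 bp from its nearest summit, so the binding recorded here was not at the promoter.

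**Figure D2:**
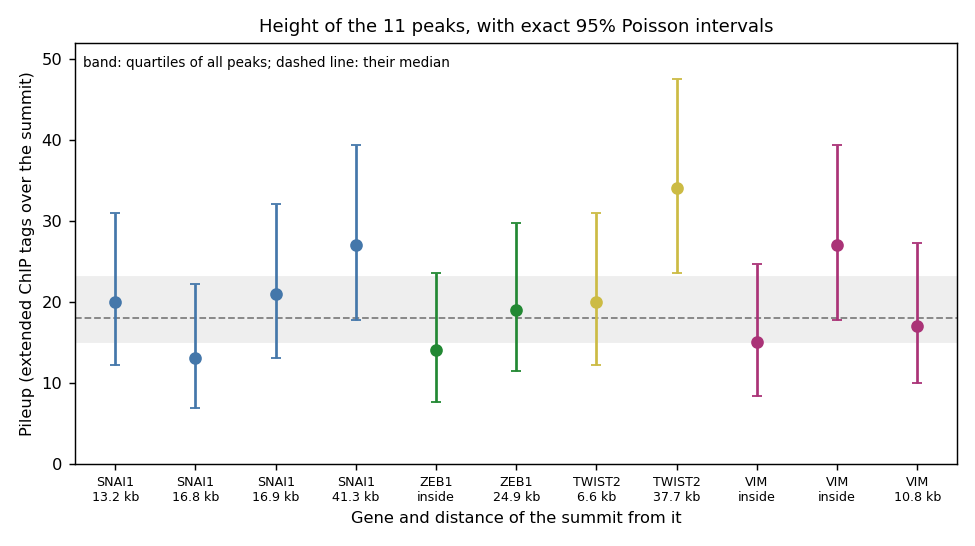
Pileup of the 11 peaks in extended ChIP tags on the vertical axis, grouped by gene, with bars for exact 95% Poisson intervals and the distance of the summit from the gene under each point. The band runs from the lower to the upper quartile of all peaks, 15 to 23 tags, and the dashed line is their median, 18. Only the 34-tag peak of TWIST2 has an interval wholly above the band.

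The heights of the 11 peaks lay within the range of the whole list. Their pileups ran from 13 to 34 tags with a median of 20, against a median of 18 and a maximum of 148 over the whole list. A pileup above the upper quartile of 23 was seen in 3 of them, the tallest of TWIST2, VIM and SNAI1, and in 22.1% of all peaks. A pileup above the median of 18 was seen in 7 of the 11 and in 45.9% of all peaks. Their median −log10 q was 8.48, against 5.90. Their lengths ran from 76 to 306 bp with a median of 176 bp, against 153 bp for all peaks, and their fold enrichments from 4.37 to 9.76 with a median of 5.99, against 5.06. The input level was at the genome background for 7 of the 11 and for 39.2% of all peaks.

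For the 5 genes with 0 peaks the nearest summits fell into near misses and wide gaps. TWIST1, which acts in the mesoderm and the neural crest, had its nearest summit 59.8 kb away, at chr7:19177401-19177615. That peak was 215 bp long with 27 tags (17.8 to 39.3) and a fold enrichment of 8.74, taller than 8 of the 11 assigned peaks, but it was nearer to FERD3L, at 32.1 kb. FN1, which encodes fibronectin, had its nearest summit 66.9 kb away, at chr2:215293952-215294084. That peak was 133 bp long with 18 tags (10.7 to 28.4), a fold enrichment of 5.93, and lay nearer to ATIC, at 18.1 kb.

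The limit of 50 kb fell between these and the assigned peaks. The farthest summits inside it were 41.3 kb from SNAI1 and 37.7 kb from TWIST2. The nearest outside it were 57345 bp from ZEB1, 59617 bp from TWIST2, 59685 bp from SNAI1 and 59847 bp from TWIST1. With 100 kb on either side TWIST1 and FN1 each gained 1 peak, and 6 of the 9 genes had one, compared with 68.2% of all protein-coding genes.

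ZEB2, SNAI2 and CDH2 lay in longer stretches without a peak. The nearest summit to ZEB2, the other ZEB repressor, was 125 kb away with 18 tags (10.7 to 28.4). The nearest to SNAI2, a factor also made in basal mammary cells, was 161 kb away with 14 tags (7.65 to 23.5), and was nearer to CLXN, at 21.5 kb. CDH2, the N-cadherin gene that rises in the cadherin switch of EMT, had none within 504 kb on either side, and only 5.18% of protein-coding genes were farther from a summit. For SNAI2 and ZEB2 the corresponding shares were 21.0% and 26.6%. Over the 9 genes the median distance to the nearest summit was 59.8 kb, against 45.5 kb over all protein-coding genes. A gene with no listed peak may still be bound below the limit of detection, which at a q-value of 0.05 was set for peaks and not for genes.

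**Figure D3:**
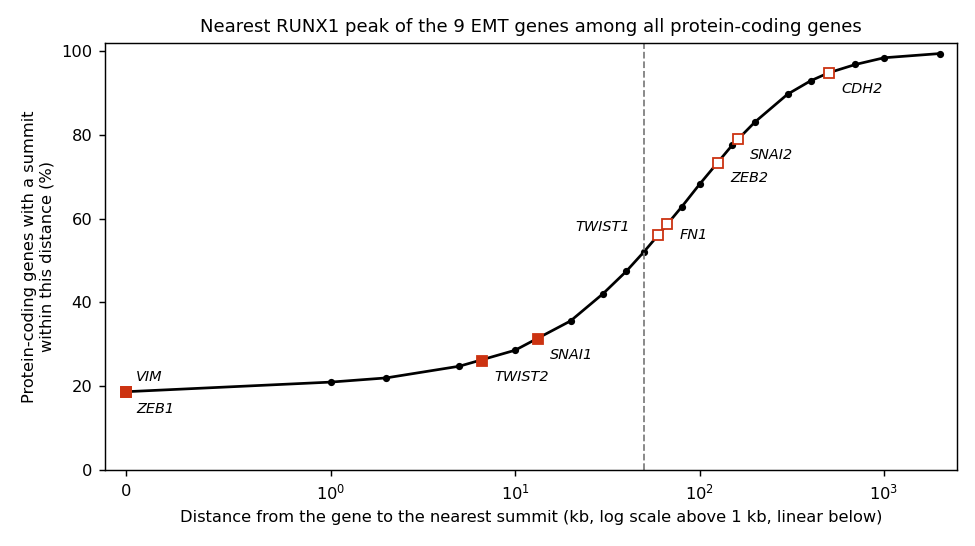
Share of all 20037 protein-coding genes with a summit within a given distance of the gene, in percent, against that distance in kb on an axis that is logarithmic above 1 kb. Squares mark the 9 genes, filled where a summit lay within 50 kb, the dashed line. ZEB1 and VIM sit at 0 kb and CDH2 at 504 kb, with the others spread along the curve.

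Genes that act beside these 9 were described by the same rule, without a test. Of 13 other EMT regulators, 8 had a peak within 50 kb (61.5%), beside 52.1% of all protein-coding genes. By −log10 q, strong peaks lay near TGFB1, the signalling ligand that induces EMT in many epithelia (31 tags, 21.1 to 44.0), and near TGFBR2, a TGF-beta receptor (24 tags, 15.4 to 35.7). The TGFB1 peak was nearer to HNRNPUL1 and the TGFBR2 peak to LOC105377015. Of 14 other mesenchymal genes, 8 had a peak (57.1%), beside the same 52.1%. The strongest were those of the matrix genes SPARC (42 tags, 30.3 to 56.8) and TNC (23 tags, 14.6 to 34.5) and of the calcium-binding protein gene S100A4 (22 tags, 13.8 to 33.3). The input level was 1.45 times the genome background at the SPARC peak, 1.33 at the S100A4 peak and 1.25 at the TGFBR2 peak. At the TNC peak it was at the background. Its part in these tag counts was not tested. The S100A4 peak was nearer to S100A5, and TNC had 6 peaks, the most in that list.

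Of 18 genes listed as epithelial, 13 had a peak within 50 kb and 6 had one inside the gene, beside 18.7% of all protein-coding genes with a summit inside. The strongest were near the claudin gene CLDN7 (29 tags, 19.4 to 41.6), the epithelial transcription factor gene ELF3 (29 tags, 19.4 to 41.6) and the E-cadherin gene CDH1 (27 tags, 17.8 to 39.3). The input level was 1.53 times the genome background at the ELF3 peak, 1.33 at the CDH1 peak and at the background for CLDN7. Its part in these tag counts was not tested. The CLDN7 peak was nearer to YBX2, and KRT8 and KRT18 shared a peak. All 3 peaks of CDH1 lay inside it, while CDH2 had none within 100 kb. Other genes of the lists went the other way. The epithelial genes EPCAM, OCLN and CRB3 also had none within 100 kb, and OCLN was farther from a summit than CDH2. CLDN3 and GRHL1 had none within 50 kb. The mesenchymal gene TNC had 3 peaks inside it. The shares with a peak were 61.5% of the regulators, 57.1% of the mesenchymal genes and 72.2% of the epithelial genes, against 44.4% of the 9 EMT genes and 52.1% of all protein-coding genes. The best peak had the listed gene as its nearest protein-coding gene for 4 of the 8 regulators, 5 of the 8 mesenchymal genes, 7 of the 13 epithelial genes and 4 of the 4 EMT genes. Whether the lists differ from each other was not tested.

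**Figure D4:**
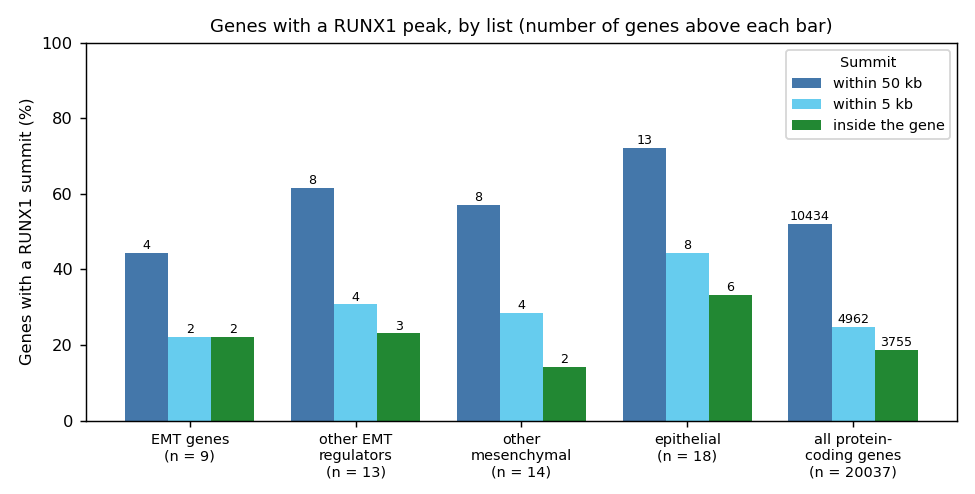
Percent of genes with a RUNX1 summit within 50 kb, within 5 kb or inside the gene, for the 9 EMT genes, 3 lists of related genes and all protein-coding genes, with the number of genes above each bar. The 9 EMT genes have 4, 2 and 2 genes in these classes, and the epithelial list has 13, 8 and 6.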

How the data were processed

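The peak list the authors deposited was made from 1 RUNX1 ChIP and 1 input library (89501295 and 94686274 tags) and called with MACS 2.1.2 at a q-value limit of 0.05. The submitters' processing notes name Bowtie2 and hg38. Per the file headers, 1 tag was kept per position and strand, tags were extended to 74 bp, and so the pileup cannot pass 148. The deposited pileup is a signal, the deposited fold enrichment is a ratio of pileup to local background, each plus 1, and the deposited q is a −log10 value. The list also has −log10 p, not used here.

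Summits were compared with gene intervals of RefSeq (GRCh38.p14) in Python 3.11.15 with pandas 2.3.3, and all 54 listed genes matched. Intervals are exact 95% Poisson intervals. The window counts were tested on simulated data. The genome background of 2.20 tags is kept ChIP tags times 74 bp over 2.7 Gb. Promoter windows came from the RefSeq table, which has no entry for SNAI1, SNAI2 and TWIST1, and it gave strands and start sites. Exons were not told apart. Members and lists were chosen with earlier results of these data known. All 9 members are named, with every peak for genes with up to 3 and otherwise the best 3 by −log10 q, and the 3 best genes of each other list, of which 1 is not reported here. Other settings were the gene alone, 5 or 100 kb, merging within 1 kb, overlap of any base, enrichment of 5-fold or more and a q limit of 0.01.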

Additional observations from a re-analysis of the deposited data

How the results depend on the processing

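Over 5 list counts and 7 settings, 23 of 35 alternative values stayed within 1.5 times the count given and 12 did not. With the gene interval alone, EMT genes with a peak went from 4 to 2 and their peaks from 11 to 3, the other regulators from 8 to 3, the other mesenchymal genes from 8 to 2 and the epithelial genes from 13 to 6. With 5 kb on either side these counts were 2, 3, 4, 4 and 8. Narrower windows hold fewer peaks by construction, and the share of all protein-coding genes fell to 18.7% and 24.8%. When peaks under 5-fold enrichment were left out, the EMT genes with a peak stayed at 4, their peaks fell to 6 and the mesenchymal genes to 5, since weaker peaks are dropped, and the share of all protein-coding genes with a peak fell from 52.1% to 35.1%, which took the 44.4% of EMT genes from below that share to above it. That setting removed the peaks at the starts of ZEB1 and VIM, whose fold enrichments were 4.68 and 4.997. A q limit of 0.01, overlap of any base and merging left 4 EMT genes with a peak. No paired analysis was possible because the ChIP and the input were each sequenced from 1 library. A pileup of 13 to 34 tags leaves wide counting intervals, and no second library was analysed here.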

Other observations

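The microRNAs of the miR-200 family and miR-205 lower ZEB1 and ZEB2 in epithelial cells, and were looked up after the values of the 9 genes were seen. Their mature sequences are given from RefSeq (GRCh38.p14), 5′ to 3′, with the seed, bases 2 to 8, in capitals. The first 3 share the seed AAUACUG and the next 2 share AACACUG, while miR-205 has another.
hsa-miR-200b-3p: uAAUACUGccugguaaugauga
hsa-miR-429: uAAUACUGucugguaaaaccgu
hsa-miR-200c-3p: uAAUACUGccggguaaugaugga
hsa-miR-200a-3p: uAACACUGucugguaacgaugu
hsa-miR-141-3p: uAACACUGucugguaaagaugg
hsa-miR-205-5p: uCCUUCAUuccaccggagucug

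MIR200B, MIR200A and MIR429, which lie together on chromosome 1, shared 1 peak within 50 kb, 44.5 to 46.4 kb away, with 13 tags and a fold enrichment of 4.37. MIR200C and MIR141 on chromosome 12 had none, and their nearest summit was 358 kb away or more. MIR205 on chromosome 1 had 4 peaks within 50 kb, the nearest at 15.9 kb, with pileups of 15 to 40 tags. The local input at these peaks ran from 1.34 to 2.92 times that of the genome as a whole, and its part in this count was not tested. Of 1913 microRNA genes, 41.7% had a summit within 50 kb and 4.18% had 4 or more.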
